A study of Mus musculus with 17 samples.

Results

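The 9 genes described here were the CCN genes Ccn1, Ccn2, Ccn3, Ccn4 and Ccn5 together with Yap1, Wwtr1, Tead1 and Ankrd1, among 55450 genes in the bulk table and 35849 in the single-cell tables. They were chosen by their TPM in the bulk groups and their counts in the single-cell libraries, with earlier results of these data known, so their levels and differences are given as a description without a test. A sixth CCN gene, Ccn6, is given beside them. Bulk RNA-seq covered 14 libraries, 2 for each of 7 groups: MFP, labelled as the primary tumor of the mammary fat pad, and CD44low and CD44high cells grown out of the lung, the bone marrow (BM) and the lymph node (LN). All came from female FVB/NJ MMTV-PyMT mice, 10 animals of 10 to 12 weeks, which carry the polyoma middle T antigen under a mammary tumor virus promoter. The LN, BM and lung groups, called organ-derived here, were cultured lines that had been sorted as EpCAMhigh and either CD44low or CD44high, and the 2 libraries of a group were separate clonal isolates of different mice, so a group rests on 2 clones. The sources used here describe MFP both as tumor and as a sorted cell line from it, so whether a difference from MFP sets cultured cells against tissue or against other cultured cells cannot be told apart. Single-cell RNA-seq covered lung CD44low, lung CD44high and LN CD44high cells with 1 library each. The paper describes 2 replicates per single-cell sample, from different mice, and the labels call each of these libraries merged. Whether a library holds more than 1 clone cannot be told.

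CCN proteins are secreted matricellular proteins that bind integrins, proteoglycans and growth factors in the extracellular matrix. CCN1 (formerly CYR61) and CCN2 (formerly CTGF) are immediate responders to serum, stretch and TGF-beta, CCN4 and CCN5 (formerly WISP1 and WISP2) were found as genes responsive to Wnt signals, and CCN5 lacks the C-terminal cystine knot module of the other members. YAP, encoded by Yap1, and TAZ, encoded by Wwtr1, are coactivators that enter the nucleus when the Hippo kinases are inactive and bind TEAD proteins, of which Tead1 encodes one, on DNA. Ccn1, Ccn2 and Ankrd1, the last encoding a muscle ankyrin repeat protein, are the most used target genes of this pair. In mammary tissue the pathway has been tied to cell shape, stiffness of the matrix and metastatic growth.

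The core of the sequence that TEAD proteins bind is GGAATG, or CATTCC on the other strand. Because Ccn1 and Ankrd1 are both classic targets and had opposite levels in lung CD44low cells, the 250 bases before the start of each gene were searched for these letters on both strands. RefSeq windows of build GRCm38.p6 were available for 4 of the 9 genes, and the letters occurred in all 4, against 14.4% of the 27025 genes and 12.6% of the 32851 windows in the table. Of all windows, 1.02% held at least 2 matches, as that of Ankrd1 did. A match is a description of the letters and not a bound site. The window of Ccn1 lies on the minus strand at chr3:145649986-145650235, just before the first exon of the gene, and is printed 5′ to 3′ with the match in capitals, 103 to 98 bases before the start.
Ccn1 window: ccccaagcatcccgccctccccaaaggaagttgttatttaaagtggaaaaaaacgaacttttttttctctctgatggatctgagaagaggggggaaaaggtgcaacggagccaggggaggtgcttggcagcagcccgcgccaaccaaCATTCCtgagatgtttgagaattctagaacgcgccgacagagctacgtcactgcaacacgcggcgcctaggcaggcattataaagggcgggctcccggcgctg

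The matches of the other genes are shown as 26 bases, again 5′ to 3′ on the minus strand with the match in capitals, to let the surrounding letters be compared. Those of Ankrd1 start 210 and 123 bases before the RefSeq start, at chr19:36120039-36120064 and chr19:36119952-36119977, within the first exon of the longest GENCODE transcript of that gene. The match of Yap1 starts 141 bases before the start, at chr9:8004722-8004747, and that of Wwtr1 starts 136 bases before it, at chr3:57576031-57576056, counted from the nearer of its RefSeq starts.
Ankrd1 far match: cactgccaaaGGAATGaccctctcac
Ankrd1 near match: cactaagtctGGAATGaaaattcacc
Yap1 match: ggagtctgcaGGAATGtagcgacgcg
Wwtr1 match: taaactcaaaGGAATGcagataggcg
No window was available for Ccn2, Ccn3, Ccn4, Ccn5 or Tead1.

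Bulk values were TPM, in which reads are divided by transcript length and library total, and therefore allow levels to be compared between genes. Between 11508 and 13052 genes per library had at least 1 TPM, and the stated minimum depth was 10 M reads. Differences are on the log2(TPM + 1) scale, which understates changes of low genes. They are given with the standard error (SE) of a limma fit over the 15348 genes that had at least 1 TPM in at least 2 libraries. The p-values and SE rest on the spread between the 2 clonal isolates of a group, pooled for each gene over the 7 groups. A gene thus has the same SE in every comparison of 1 group with 1 other, also where its groups differ in spread. In bulk samples, fewer cells of a type and less RNA per cell cannot be told apart.

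The lung libraries went against their sort label at the RNA level. Epcam was listed at 0 in both lung CD44low libraries and at 0.23 and 0.86 TPM in the lung CD44high libraries, against 315 to 941 TPM in the other 10. Cdh1 was at most 0.03 TPM in the 4 lung libraries. The 8 epithelial markers together summed to 1.74 and 2.36 TPM in lung CD44low and to 15.8 and 87.6 TPM in lung CD44high cells, where the simple keratins Krt8 and Krt18 made up most of the sum, against 2185 to 7583 TPM in the other groups. Of 10 fibroblast markers, 9 reached 1 TPM in both lung CD44low libraries and their sum was 4789 and 5230 TPM, while lung CD44high cells summed to 103 and 216 TPM, LN and BM cells to 7.43 to 46.2 TPM and MFP to 0.50 and 1.31 TPM. Acta2, the smooth muscle actin of myofibroblasts and myoepithelial cells, had 657 and 711 TPM in lung CD44low cells and at most 1.36 TPM elsewhere. The 10 smooth muscle and myoepithelial markers that include it summed to 821 and 902 TPM there, but also to 595 and 656 TPM in MFP, where Krt14, a basal keratin, made up 594 and 655 TPM, and to 17.3 to 69.0 TPM in the other groups. Mesothelial markers summed to 309 and 414 TPM in MFP, nearly all from Msln, and to at most 24.5 TPM elsewhere. Endothelial markers summed to at most 0.21 TPM and macrophage markers to at most 23.2 TPM in any library. Cd44 itself did not follow the sort, with 49.0 and 52.3 TPM in LN CD44high against 147 and 82.7 TPM in LN CD44low cells and overlapping values in BM and lung. The part of these differences in the results on the lung groups was not tested.

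Among the secreted members, Ccn5 separated the groups by the widest margin. MFP libraries held 0.30 and 1.32 TPM of it. Its level was 33.7 and 35.3 TPM in LN CD44low, 42.3 and 51.3 TPM in LN CD44high, 73.3 and 43.4 TPM in BM CD44low, 60.2 and 112 TPM in BM CD44high, 1603 and 1654 TPM in lung CD44low, and 2456 and 2276 TPM in lung CD44high cells. Every organ-derived library was above both MFP libraries, and every lung library was above every LN and BM library. The ratio of mean TPM to MFP ranged from 42.6 in LN CD44low to 2921 in lung CD44high cells, with differences of 4.35 ± 0.36 to 10.41 ± 0.36 (SE, 2 libraries against 2). These ratios rest on a denominator of 0.81 ± 0.72 TPM (SD, n = 2) in MFP. In the order of levels, lung CD44high stood above lung CD44low and LN CD44low stood above MFP without overlap, whereas the BM groups overlapped each other and BM CD44low overlapped LN CD44high. CD44high cells had the higher mean in all 3 organs, by 0.42 ± 0.36 in LN, 0.54 ± 0.36 in BM and 0.54 ± 0.36 in lung. When each library was left out, these differences ranged from 0.28 to 0.56, from 0.09 to 0.98 and from 0.48 to 0.59.

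Ccn1 had the highest level of the remaining CCN genes, and its highest libraries were those of lung CD44low cells with 1760 and 1582 TPM. LN CD44low cells had 1127 and 214 TPM, lung CD44high cells 407 and 540, MFP 482 and 365, LN CD44high cells 225 and 229, BM CD44low cells 254 and 128, and BM CD44high cells 135 and 179 TPM. Only lung CD44low cells and MFP stood above both libraries of the group next in order. The difference of lung CD44low cells from MFP was 1.99 ± 0.62, a ratio of 3.94, just under the limit of 2 used below. LN CD44low replicate 1 stood apart from replicate 2, and without it the difference of that group from MFP went from 0.23 to -0.97.

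Ccn2 had a similar order of groups at lower levels. It had 744 and 784 TPM in lung CD44low cells against 138 and 158 TPM in lung CD44high cells, and these groups did not overlap each other or any other group apart from the overlap of lung CD44high with LN CD44low. In LN CD44low cells the values were 187 and 36.2 TPM, in MFP 123 and 39.2, in LN CD44high 36.1 and 50.4, in BM CD44high 24.2 and 45, and in BM CD44low 42.6 and 20 TPM. The lung CD44low level was 9.44 times that of MFP (3.44 ± 0.74) and 5.17 times that of lung CD44high cells (-2.37 ± 0.74 for CD44high minus CD44low). The MFP libraries differed from each other, and the difference from MFP was 2.63 without MFP replicate 2 and 4.25 without MFP replicate 1. An antisense transcript, Gm15270, overlaps Ccn2 and had at most 6.50 TPM, and whether the counting used strand was not stated.

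Ccn4 was low outside the lung and differed between the lung groups. Lung CD44low cells had 32.9 and 43.2 TPM and lung CD44high cells 0.26 and 0.94 TPM, which were the highest and lowest values of all libraries. The LN, BM and MFP libraries lay between 1.53 and 9.19 TPM. Lung CD44low cells were 2.73 ± 0.55 above MFP, and lung CD44high cells differed from lung CD44low cells by -4.63 ± 0.55. Since both lung CD44high libraries were under 1 TPM, the size of that difference depends on the pseudocount, and it was -5.95 with a pseudocount of 0.1. Ccn3 reached at most 0.61 TPM, in MFP, and Ccn6 at most 0.24 TPM, so neither passed the filter on low values and no difference is given. MFP held 0.52 and 0.61 TPM of Ccn3, above the 0.49 TPM of the highest other library.

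The coactivator genes did not move together. Yap1 had 43.6 and 61.7 TPM in lung CD44low cells, 10.3 and 34.1 TPM in BM CD44low cells, and between 7.36 and 13.6 TPM in the other 10 libraries. Lung CD44low cells were above every other library, by 1.88 ± 0.46 over MFP and by a ratio of 5.38 over lung CD44high cells (-2.33 ± 0.46 for CD44high minus CD44low). BM CD44low replicate 2 set the level of its group, and without it the difference from MFP went from 0.47 to -0.35. Wwtr1 stayed within 13.9 to 33.5 TPM in all 14 libraries. Its MFP libraries, at 27.2 and 33.5 TPM, stood above all others, and the 6 differences from MFP lay between -0.82 and -0.62, each ± 0.29. After median-ratio scaling the smallest of these in size was in BM CD44high cells, at -0.23.

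Tead1, which encodes a DNA-binding partner of both coactivators, was high in both lung groups. Lung CD44low cells had 17.0 and 27.0 TPM and lung CD44high cells 22.3 and 12.3 TPM, while the other 10 libraries had 2.54 to 5.99 TPM. All 4 lung libraries were therefore above all others, and the lung groups overlapped each other. The differences from MFP were 2.02 ± 0.39 and 1.67 ± 0.39, and the lung groups differed by -0.35 ± 0.39.

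Ankrd1 was lower than MFP in every organ-derived group, also in lung CD44low cells, where Ccn1 and Ccn2 were highest, while in LN CD44high and both BM groups all 3 genes had negative differences from MFP. The sign was not stable for Ccn2 in LN CD44high cells, where -0.69 went to 0.12 without MFP replicate 1. For Ankrd1, MFP had the highest level, 76.7 and 63.3 TPM, followed by LN CD44high with 41.4 and 36.6 TPM, LN CD44low with 56.2 and 12.3 TPM and BM CD44low with 20.4 and 15.9 TPM. Lung CD44high cells had 4.61 and 8.59 TPM, BM CD44high cells 2.51 and 7.92 TPM, and lung CD44low cells were listed at 0 in both libraries. No organ-derived library reached the MFP values. The difference from MFP was -3.66 ± 0.63 in BM CD44high and -3.27 ± 0.63 in lung CD44high cells, and without LN CD44low replicate 1 it went from -1.36 to -2.41 in LN CD44low cells. In BM CD44high cells it was -2.99 without replicate 1 and -4.33 without replicate 2. Within an organ, CD44high libraries were lower than CD44low libraries in BM (-1.77 ± 0.63, and -1.09 without BM CD44high replicate 1 or -2.44 without replicate 2) and higher in lung, while in LN they overlapped. Since lung CD44low cells were listed at 0, the size of any log2 difference of Ankrd1 against them is set by the pseudocount, and no ratio is given.

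**Figure D1:**
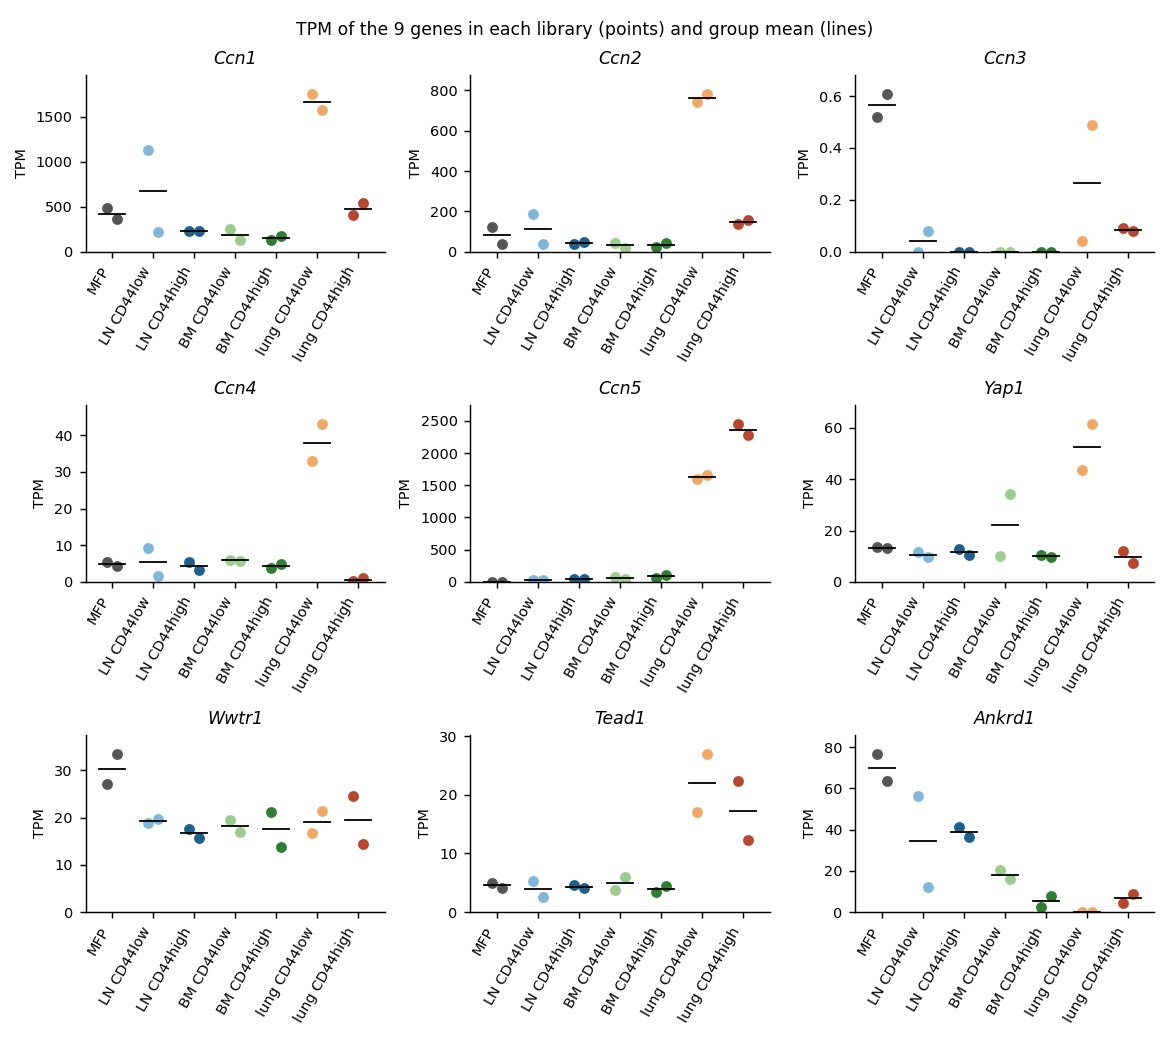
TPM of each of the 9 genes (vertical axes, linear, each gene on its own scale) in the 14 bulk libraries, as 2 points per group with a line at the group mean. Lung CD44low cells are the highest group for Ccn1, Ccn2, Ccn4, Yap1 and Tead1, both lung groups stand far above the rest for Ccn5, and MFP is the highest for Ankrd1 and Wwtr1.

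Of the 9 genes, 8 passed the filter on low values, Ccn3 being the exception. The number of these with an absolute difference over 2 from MFP was 1 in LN CD44low, 1 in LN CD44high and 1 in BM CD44low cells, in each case Ccn5. Over all genes tested, 5.66%, 7.02% and 8.14% had such a difference in those comparisons. BM CD44high cells had 2 such genes, Ccn5 and Ankrd1, with 8.55% over all genes, and lung CD44high cells the same 2, with 14.3% over all genes. In lung CD44low cells there were 5, namely Ccn2, Ccn4, Ccn5 and Tead1 above and Ankrd1 below MFP, with 19.5% over all genes. Just under the limit in that comparison, and so not counted, were Ccn1 (1.99) and Yap1 (1.88), and just over it was Tead1 (2.02). In lung CD44high cells Ccn4 (-1.90) and Tead1 (1.67) were not counted, but went to -2.22 and 2.08 without lung CD44high replicate 2, which made the count 4. Since these genes were chosen with the values known, nothing is read from the counts.

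Between CD44high and CD44low cells, no gene of the 8 differed by over 2 in LN or BM, where 1.35% and 1.47% of all genes did. In LN the differences of Ccn1 and Ccn2 were -1.11 and -0.94, and without LN CD44low replicate 2 they were -2.31 and -2.10, while without replicate 1 they were 0.08 and 0.23. In BM, Ankrd1 alone passed 2 in size without BM CD44high replicate 2. In lung, 4 of the 8 did, with Ccn2, Ccn4 and Yap1 lower and Ankrd1 higher in CD44high cells, and 12.3% of all genes did. Across organs, the mean of both lung groups was above the mean of the 4 LN and BM groups by 5.20 ± 0.22 for Ccn5, 2.94 ± 0.45 for Ccn2, 1.94 ± 0.24 for Tead1 and 1.90 ± 0.38 for Ccn1. Of these, Ccn5 and Tead1 did not overlap between the 4 lung and the 8 LN and BM libraries, and Ccn1 and Ccn2 did through LN CD44low replicate 1. Ankrd1 differed by -2.77 ± 0.39, a size that depends on the pseudocount because lung CD44low cells were at 0. Lung CD44high cells overlapped BM CD44high cells, with the higher mean of the 2, but lay below every LN library and both BM CD44low libraries. The count over 2 was 3 of 8, for Ccn2, Ccn5 and Ankrd1, with 12.8% of all genes, and became 5 without LN CD44low replicate 1. Comparisons with MFP share its 2 libraries, and the plot of differences gives each on its own.

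**Figure D2:**
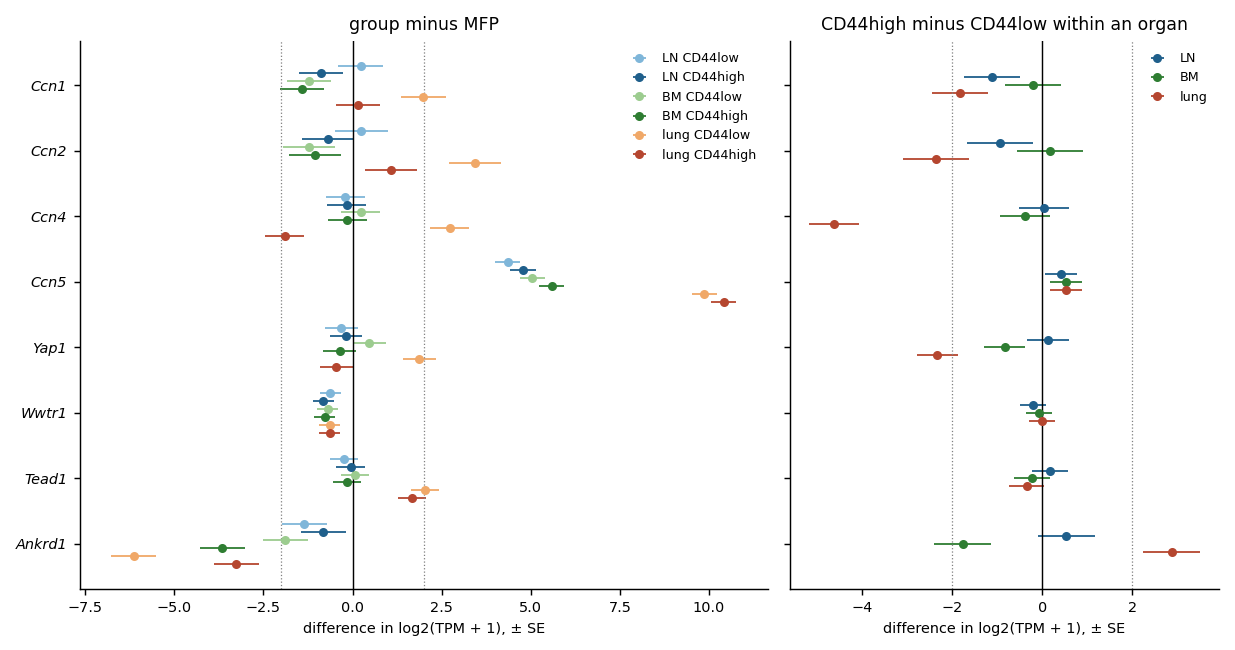
Difference in log2(TPM + 1) with its SE for the 8 genes that passed the filter, for each organ-derived group minus MFP (left) and for CD44high minus CD44low cells within LN, BM and lung (right), with dotted lines at -2 and 2. Ccn5 lies between 4.35 and 10.41 above MFP in all 6 groups, and in the right panel the lung points of Ccn2, Ccn4, Yap1 and Ankrd1 lie past the dotted lines. Both lung CD44low libraries are at 0 TPM for Ankrd1, so its points against that group are set by the pseudocount.

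Other genes of the pathway were tested with limma, and a gene passed when its absolute difference was over 2 and its p, adjusted over all genes by Benjamini-Hochberg, was under 0.05. The list held 48 genes, 32 Hippo kinases, scaffolds and TEAD partners and 19 genes of a YAP target signature, with 3 genes in both, and 44 of the 48 were tested. In lung CD44low cells 15 of the 44 rose and 3 fell against MFP, where 11.2% of all genes rose and 7.62% fell. In lung CD44high cells 13 rose and 3 fell, where 5.42% and 8.03% of all genes did. The medians of the 44 differences were 1.22 and 0.69, against 0.00 and -0.04 over all genes. In LN CD44low cells 4 rose and 1 fell, where 2.07% and 2.72% of all genes did, and in LN CD44high cells 3 rose and 1 fell, where 2.44% and 3.68% did. In BM CD44low cells 3 rose and 1 fell, where 3.99% and 3.17% of all genes did, and in BM CD44high cells 4 rose and 3 fell, where 3.64% and 4.03% did. Their medians lay between -0.81 and -0.13, against -0.34 to -0.04 over all genes. These lists were also chosen with earlier results known.

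The target signature carried most of the rises in lung. In lung CD44low cells 11 of its 18 tested genes rose and 1 fell, where 11.2% and 7.62% of all genes did. The rises were led by Ccdc80, a secreted matrix protein, at 654 and 812 TPM against at most 0.06 TPM in MFP (9.47 ± 0.26, adjusted p = 4.61e-09). F3, which encodes tissue factor, rose by 6.27 ± 0.62 (adjusted p = 2.68e-05), and Lats2, a Hippo kinase that is itself a target, had 75.4 and 96.4 TPM against 4.73 and 3.64 TPM and rose by 4.06 ± 0.41 (adjusted p = 2.83e-05). Myof, which encodes myoferlin, fell (-2.96 ± 0.49, adjusted p = 0.000927). In lung CD44high cells 8 of the 18 rose and 3 fell, where 5.42% and 8.03% of all genes did. Crim1, a membrane protein with cysteine-rich repeats, and the kinase gene Nuak2 rose the most, by 5.03 ± 0.48 (adjusted p = 3.58e-05) and 5.01 ± 0.44 (adjusted p = 2.18e-05), and Arhgef17 fell (-3.15 ± 0.21, adjusted p = 2.97e-06). Arhgef17 also fell in all 4 LN and BM groups, while F3, Nuak2 and Tgfb2 rose in all 4. In LN CD44low cells both libraries were above both MFP libraries for these 3 genes, but the calls did not hold without single libraries, since F3 (2.25 ± 0.62, adjusted p = 0.0388) went to 1.21 without LN CD44low replicate 2, Nuak2 from 2.28 to 1.71 without replicate 1 and Tgfb2 from 2.17 to 1.95 without MFP replicate 1, and none then passed.

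Among the Hippo genes, 6 of 29 rose and 2 fell in lung CD44low cells and 7 of 29 rose in lung CD44high cells. Of all genes 11.2% rose and 7.62% fell in the first comparison, and 5.42% rose in the second. Vgll3, a cofactor that binds TEAD proteins, had 185 and 219 TPM in lung CD44low and 61.9 and 99.7 TPM in lung CD44high cells against 4.67 and 4.87 TPM in MFP. The protocadherin gene Fat4 had 37.96 and 16.8 TPM in lung CD44high cells against 0.38 and 0.08 TPM in MFP (4.43 ± 0.38, adjusted p = 1.87e-05). Of the other TEAD genes, Tead3 rose in lung CD44low cells (2.75 ± 0.56, adjusted p = 0.0031) and Tead4 fell there, from 18.4 and 34.1 TPM in MFP to 2.31 and 2.77 TPM (-2.88 ± 0.40, adjusted p = 0.000262). Tead2 had 7.42 and 14.3 TPM in lung CD44low cells and 20.4 and 10.7 TPM in MFP, and did not pass (adjusted p = 0.445). Amotl2, an angiomotin family scaffold that binds YAP, had 106 and 155 TPM in lung CD44low cells against 50.8 and 31.1 TPM in MFP, which was under the limit of 2 (1.66 ± 0.47, adjusted p = 0.0167). Against LN and BM cells together, lung cells had higher Amotl2 (2.31 ± 0.29, adjusted p = 8.89e-05) and higher Lats2 (3.84 ± 0.25, adjusted p = 9.15e-07), and in that comparison 11 of the 44 genes rose and none fell, where 7.13% of all genes rose and 5.54% fell.

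Pathway genes also differed between the lung groups. From CD44low to CD44high cells 2 of the 44 rose and 7 fell, where 2.49% and 8.80% of all genes did. Ccdc80 (-8.68 ± 0.26, adjusted p = 8.24e-09) and F3 (-7.29 ± 0.62, adjusted p = 1.3e-05) fell, while Nf2, which encodes the Hippo activator merlin, had 63.0 and 79.4 TPM in CD44low and 434 and 327 TPM in CD44high cells and rose by 2.39 ± 0.41 (adjusted p = 0.0018). In LN and in BM, 0 of the 44 passed in the limma test, with 3 and 4 at an unadjusted p under 0.05, and 0.208% and 0.104% of all genes passed. Without BM CD44low replicate 1, 5 of the 44 and 6.35% of all genes passed in BM. As interactions, the CD44 difference in lung differed from that in LN for 8 of the 44 genes, where 10.4% of all genes passed, and from that in BM for 8, where 8.66% passed.

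**Figure D3:**
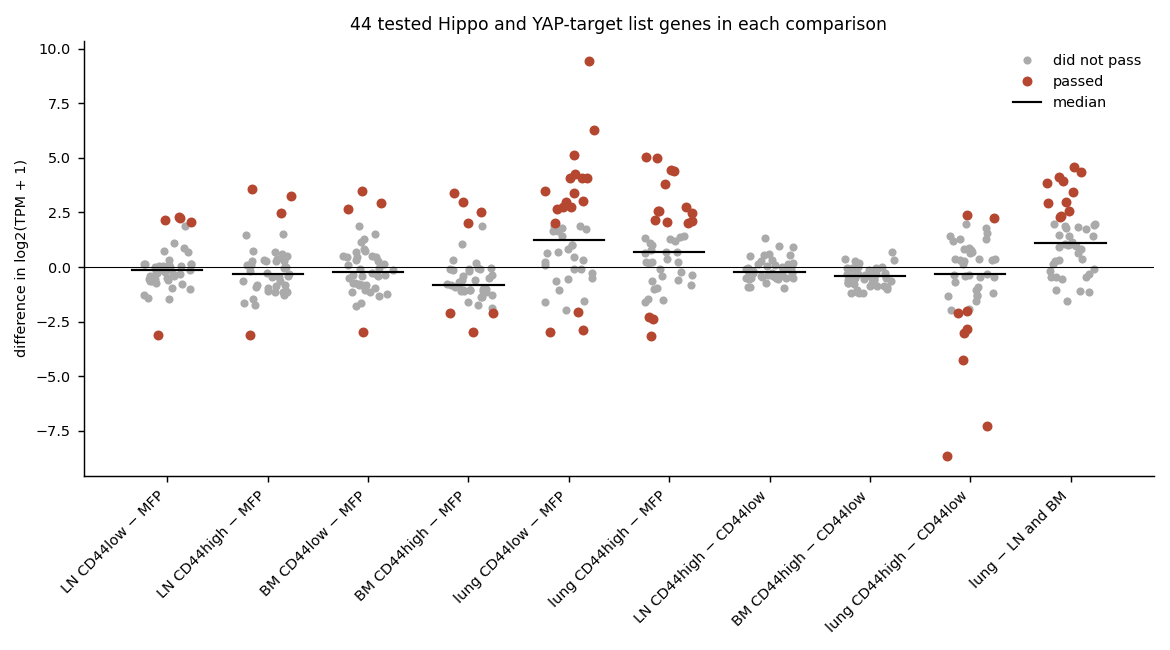
Difference in log2(TPM + 1) of the 44 tested Hippo and YAP-target genes (points, spread sideways at random) in each of 10 comparisons, red where limma passed the gene (absolute difference over 2 and adjusted p under 0.05) and grey otherwise, with a black line at the median. The medians are 1.22 and 0.69 for the lung groups minus MFP. They lie below 0 for the LN and BM groups minus MFP, where the medians over all genes lie between -0.34 and -0.04.

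Receptors of CCN proteins were tested as a list of 10 integrin, LRP, syndecan and Notch genes. In lung CD44low cells 3 rose and 2 fell against MFP, where 11.2% and 7.62% of all genes did. The rises were led by Lrp1, the endocytic receptor that binds CCN2, with 229 and 437 TPM against 0.95 and 0.33 TPM (7.62 ± 0.72, adjusted p = 1.99e-05). Itga6, the laminin-binding subunit through which CCN1 also acts, fell to 0.01 and 0.13 TPM from 24.2 and 22 TPM (-4.49 ± 0.26, adjusted p = 5.02e-07), and it fell in lung CD44high cells as well (-3.99 ± 0.26, adjusted p = 2.59e-06). In lung CD44high cells 2 of the 10 rose and 1 fell, where 5.42% and 8.03% of all genes did. In each BM group, where 3.99% (CD44low) and 3.64% (CD44high) of all genes rose, Lrp1 alone rose, though not without MFP replicate 2 or, in BM CD44high cells, without BM CD44high replicate 1, and in the LN groups none passed.

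Immediate early genes, which like Ccn1 respond within minutes to serum, were tested as a list of 15, of which 14 passed the filter. Against MFP, 1 of 14 fell in LN CD44low, 4 in LN CD44high, 6 in BM CD44low and 6 in BM CD44high cells, where 2.72%, 3.68%, 3.17% and 4.03% of all genes fell, and none rose in these groups. In lung CD44low cells 3 rose, Egr1, Ier2 and Dusp1, and 1 fell, where 11.2% and 7.62% of all genes did, and in lung CD44high cells 3 fell, where 8.03% of all genes did, and none rose. Dusp1, a MAP kinase phosphatase gene, had 710 and 1060 TPM in lung CD44low cells against 128 and 175 TPM in MFP and 18.1 to 55.3 TPM in LN and BM cells. In the BM groups, where 6 of the 14 fell, Ccn1 had 128 to 254 TPM against 365 and 482 TPM in MFP.

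The genes most like each member over the 14 libraries were taken by Pearson's r of log2(TPM + 1) among 10558 genes that reached 10 TPM in at least 1 library, and the 2 libraries of a group are not independent points. Ccn1 and Ccn2 were each other's closest gene, with r = 0.96. Next came Rnd1 (0.93) and Snai2 (0.92) for Ccn1, and Thbs1 (0.94) and Csf1 (0.94) for Ccn2. Ccn4 was closest to Cers6 (0.98), Mob3a (0.98) and Net1 (0.96), and Ccn5 to Cpq (0.97), Gulp1 (0.97) and Gstm1 (0.96). For Yap1 the closest were Sox4, Rad23b and Tram1 (each 0.98), for Tead1 Lyst (0.98), Stim1 (0.98) and C230034O21Rik (0.97), and for Ankrd1 Gfm1 (0.96), Eef1d (0.96) and Chrnb1 (0.95). Wwtr1, which varied least, had the weakest matches, with Tmod3, Ssh3 and Vti1a at 0.85, 0.85 and 0.84. By Spearman's rho many of these genes ranked lower. Ccn1 was still the closest gene of Ccn2, but Ccn2 ranked 8 for Ccn1, and Mob3a for Ccn4 and Ssh3 for Wwtr1 ranked 1. Net1 ranked 60 for Ccn4, Gulp1 373 for Ccn5, Tram1 104 for Yap1, and Lyst 161 and C230034O21Rik 311 for Tead1. By Pearson's r, no member other than Ccn1 and Ccn2 was among the 3 closest genes of another.

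In the single-cell libraries, cells with over 250 genes and under 10% mitochondrial counts were kept, which left 348 of 2808 barcodes for lung CD44low, 1236 of 3623 for lung CD44high and 2562 of 3297 for LN CD44high cells. The median counts per cell were 4011, 557 and 585, and the files carry no barcode sequence, but no cell had the same counts in 2 libraries. With 1 library per group there is no test, and the intervals below cover counting error only. Epcam had 0 counts in lung CD44low cells, which allows up to 0.0135 per 10000, 3 counts in lung CD44high and 936 in LN CD44high cells. The 8 epithelial markers summed to 0.878 counts per 10000 in lung CD44low, 4.27 in lung CD44high and 9.18 in LN CD44high cells, and in lung CD44high cells all but Epcam, Krt8 and Krt18 had no count. Acta2 had 45.6 counts per 10000 in lung CD44low, 0.0588 in lung CD44high and 0 in LN CD44high cells, where a count of 0 allows up to 0.00567.

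Summed over kept cells, Ccn2 reached 25 counts per 10000 in lung CD44low cells (exact Poisson 95% interval 24.3 to 25.7), 0.846 (0.729 to 0.976) in lung CD44high and 0.624 (0.559 to 0.695) in LN CD44high cells. Ccn1 had 10.1 (9.71 to 10.6), 4.78 (4.49 to 5.07) and 4.09 (3.92 to 4.27) in the same order. Both were thus highest in lung CD44low cells, and in that library Ccn2 had more counts than Ccn1, while in bulk Ccn1 had the higher TPM. Ccn4 had 0.549 (0.456 to 0.656), 0.317 (0.247 to 0.400) and 0.0624 (0.0430 to 0.0876). After thinning to 500 counts per cell, as described below for shares, Ccn4 had a count in 1.27% (0.348 to 3.23) of lung CD44low and 0.949% (0.435 to 1.79) of lung CD44high cells, so at equal depth the intervals overlapped. In summed counts, its ratio between the lung libraries was smaller than in bulk, where lung CD44high cells were at 0.60 TPM on average and LN CD44high cells above them at 4.32 TPM.

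Ccn5 had 2.08 (1.89 to 2.27) in lung CD44low, 2.97 (2.74 to 3.20) in lung CD44high and 0.206 (0.169 to 0.249) in LN CD44high cells, the same order as in bulk. Ccn3 had 25, 29 and 0 counts, which is 0.113 and 0.131 per 10000 in the lung libraries, while the 0 counts in LN CD44high cells allow up to 0.00567, the level of 3 counts. Ccn6 had no count in any library. Yap1 was highest in lung CD44low cells, with 1.24 (1.10 to 1.39) against 0.570 (0.475 to 0.679) and 0.600 (0.535 to 0.669), and so was Tead1, with 2.33 (2.13 to 2.54) against 1.02 (0.889 to 1.16) and 0.673 (0.605 to 0.747). Wwtr1 had 1.35 (1.2 to 1.51), 1.56 (1.40 to 1.73) and 1.08 (0.993 to 1.17), the lowest in LN CD44high cells. From 66 counts in 23 cells, Ankrd1 had 0.297 (0.230 to 0.378) in lung CD44low cells, although both bulk libraries of that group list it at 0. Lung CD44high cells had 0.267 (0.203 to 0.344) and LN CD44high cells 0.622 (0.557 to 0.693), the highest of the 3.

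**Figure D4:**
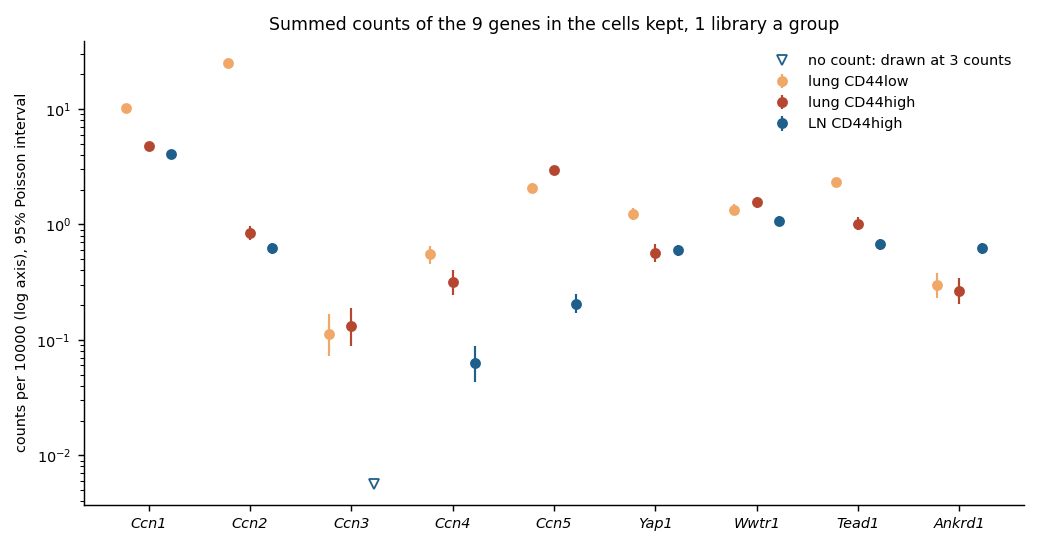
Counts per 10000 (vertical log axis) of each of the 9 genes summed over the kept cells of 3 single-cell libraries, with exact Poisson 95% intervals, which are often smaller than the points. Ccn2 is at 25 in lung CD44low cells and below 1 in the others, and the open triangle marks the limit of 3 counts for Ccn3 in LN CD44high cells, where no count was found.

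To compare shares of cells, each cell was thinned to 500 counts, which left out 34, 288 and 659 shallower cells of lung CD44low, lung CD44high and LN CD44high. Ccn2 then had a count in 154 of 314 lung CD44low cells, 49.0% (exact binomial 95% interval 43.4 to 54.7), against 3.69% (2.58 to 5.10) of 948 lung CD44high and 2.84% (2.14 to 3.69) of 1903 LN CD44high cells. Without thinning the shares were 70.7%, 7.28% and 6.87%. Ccn1 had a count in 32.2% (27.0 to 37.6), 10.8% (8.86 to 12.9) and 13.2% (11.7 to 14.8) of thinned cells, and in 63.2%, 19.1% and 21% without thinning. Thinned shares of Ccn5 were 9.24% (6.27 to 13.0), 10.0% (8.18 to 12.1) and 0.631% (0.326 to 1.10), so that the lung libraries overlapped in their intervals, and unthinned they were 31.0%, 20% and 2.77%. Cell types that should lack these genes were not named here, so the share that free RNA gives was not measured, and doublets were not removed.

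Within the single lung CD44low library, shares of cells with Ccn2 and Ccn1 are given by other genes detected in the same cells, as a description, since cells of 1 library are not replicates. After the data were seen, the 314 thinned cells were split by a count of Acta2, and 197 had one. Ccn2 had a count in 61.4% (54.2 to 68.3) of these and in 28.2% (20.3 to 37.3) of the 117 others, at 28.2 and 11.3 counts per 10000. Ccn1 had a count in 38.6% (31.7 to 45.8) and 21.4% (14.3 to 29.9), and the intervals of these genes did not overlap. Those of Ccn5 overlapped slightly, at 12.7% (8.38 to 18.2) and 3.42% (0.939 to 8.52). Yap1, at 6.09% (3.19 to 10.4) and 5.98% (2.44 to 11.9), and Tead1, at 8.63% (5.11 to 13.5) and 6.84% (3.0 to 13.0), had widely overlapping intervals. Split by a count of Ccn1 instead, 61.4% (51.2 to 70.9) of 101 cells with one and 43.2% (36.4 to 50.1) of 213 without one had a count of Ccn2. Col1a1, the fibrillar collagen gene of fibroblasts, had a count in 53 of the cells, of which 64.2% (49.8 to 76.9) had Ccn2 and 1.89% (0.0478 to 10.1) had Ccn5, against 46.0% (39.8 to 52.2) and 10.7% (7.25 to 15.1) of the 261 others.

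**Figure D5:**
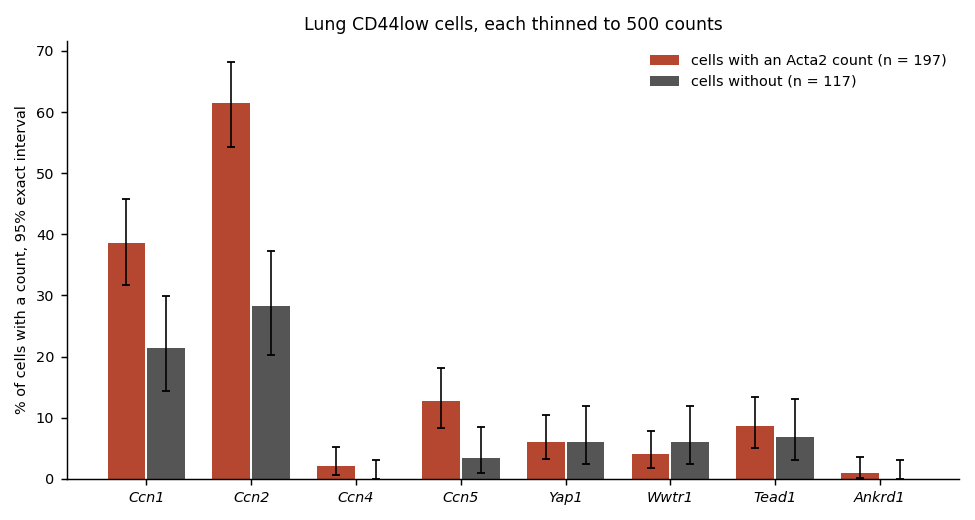
Share of lung CD44low cells, each thinned to 500 counts, with a count of each gene (bars from 0, with exact binomial 95% intervals), for 197 cells with and 117 cells without a count of Acta2. The intervals of Ccn2 and of Ccn1 do not overlap between the 2 sets of cells, and those of Ccn5, Yap1, Wwtr1 and Tead1 do.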

How the data were processed

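Bulk RNA-seq was made with a modified SMART-seq2 protocol. STAR, the mm10 genome, GENCODE and RSEM were used by the authors, who deposited TPM values per gene. The single-cell libraries came from the ddSeq platform and kallisto, and the authors deposited raw counts per gene and cell. Symbols were matched to all 55450 gene identifiers through GENCODE vM21.

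The 14 libraries were fitted as 7 group means with limma 3.58.1 (lmFit, eBayes with trend) in R 4.3.3 on log2(TPM + 1), with 7 residual degrees of freedom. Genes needed at least 1 TPM in at least 2 libraries, and 15348 passed. A call needed an absolute difference over 2 with p under 0.05 after Benjamini-Hochberg adjustment across these genes. TPM keep no read counts, so the counting error of low values is unknown. Single-cell counts were summed, or thinned to 500 per cell with seed 1, using Python 3.11.15 with scipy 1.17.1, pandas 2.3.3 and numpy 2.4.6. Figures used matplotlib 3.10.9. The fit and the thinning were tested on simulated data.

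The members, the lists and the rule for naming genes were chosen with earlier results of these data known. Named were all 9 members and Ccn6, Tead2, Tead3, Tead4, Lats2, Amotl2, 6 cell type markers, the 3 genes most like each member, and list genes among the 3 largest rises and 3 largest falls of a comparison without overlap of libraries. Egr1, Ier2, Ier3, Frmd6, Gadd45a, Rbms3, Krt14, Krt18, Msln and Gm15270 were named after their values were seen. Alternatives were a pseudocount of 0.1, no filter or one of 5 TPM, median-ratio scaling, the replicate number as a block and each library left out. For single cells they were over 500 genes, a mitochondrial limit of 20% or none, all barcodes, the mean over cells and no thinning.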

Additional observations from a re-analysis of the deposited data

Results flagged for a closer look

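The CD44 difference, CD44high minus CD44low, of several genes of the pathway, receptor and immediate early lists differed between organs in the interaction test of limma. In lung it was lower than in LN for Ccdc80 (-9.22), F3 (-8.62), Lrp1 (-5.36), Arhgef17 (-3.05), Fosl1 (-2.34) and Tgfb2 (-2.22), with Benjamini-Hochberg adjusted p from 1.62e-07 to 0.0466, and higher than in LN for Notch1 (2.94, adjusted p = 0.0237) and Fat4 (2.03, adjusted p = 0.0263). Against BM it was lower in lung for Ccdc80 (-9.38), F3 (-7.21), Lrp1 (-5.08) and Arhgef17 (-3.02), and higher for Notch1 (3.19), Nf2 (2.93), Crim1 (2.41) and Nuak2 (2.25), with adjusted p from 1.46e-07 to 0.0395. Also passing were Rbms3 (-4.24 against LN and -4.28 against BM), Gadd45a (-3.36 and -3.24), Egr1 (-3.71 and -3.67) and Ier2 (-2.33 and -2.12) in both, Frmd6 (2.09) against LN and Ier3 (-2.35) against BM. Lrp1 and Notch1 belong to the receptor list and Fosl1, Egr1, Ier2 and Ier3 to the immediate early list, and the others are among the 44 pathway genes. Both sets of interactions share the lung libraries, and some of these calls did not hold when a single library was left out, as given below.

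In bulk, the CD44 difference of Ankrd1 had opposite signs in BM and lung. It was lower in both BM CD44high than in both BM CD44low libraries (-1.77), and it was detected in both lung CD44high libraries but listed at 0 in both lung CD44low libraries (2.87 on the log2(TPM + 1) scale). The difference between these was not tested, and the second value is set by the pseudocount, with 6.0 at a pseudocount of 0.1. In the single-cell libraries the intervals of Ankrd1 overlapped between the lung groups, with 0.297 counts per 10000 (exact Poisson 95% interval 0.230 to 0.378) in lung CD44low and 0.267 (0.203 to 0.344) in lung CD44high cells. The BM difference was -1.09 without BM CD44high replicate 1 and -2.44 without replicate 2.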

How the results depend on the processing

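None of the differences reported as called reversed. The counts over the lung groups were stable: of the 44 pathway genes, 18 passed in lung CD44low cells against MFP (15 to 20 when each library was left out, and 22 with a pseudocount of 0.1), 16 in lung CD44high cells (12 to 16) and 9 between the lung groups (8 to 10). The counts in LN and BM depended more on the settings. In LN CD44low cells 5 passed, against 3 with no filter on low values, 3 with the replicate number as a block and 2 to 5 when each library was left out. With a pseudocount of 0.1, the counts went from 4 to 7 in LN CD44high, from 4 to 7 in BM CD44low and from 7 to 12 in BM CD44high cells. Between the BM groups 0 passed, and 0 to 5 did when each library was left out, the 5 without BM CD44low replicate 1. The interactions passed for 8 genes each, and for 4 to 12 (lung against LN) and 5 to 9 (lung against BM) when each library was left out. For single named genes in the comparisons of groups, calls were lost 19 times, counted once per gene, comparison and setting. All were in LN or BM cells against MFP. F3 in LN CD44low cells was among them with no filter, with the block and without most single libraries. The interactions are not in this number, and calls among them were also lost. For counts under other settings, the share of all genes is given only for BM without BM CD44low replicate 1. Whether the list moved more than all genes did cannot be told from the other counts. The cause of these shifts was not tested.

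The number of members with a difference over 2 was 1 in LN CD44low cells (1 to 2 when each library was left out, 2 without LN CD44low replicate 1), 1 in BM CD44low (1 to 3, 3 without MFP replicate 2), 2 in lung CD44high (2 to 4, 4 without lung CD44high replicate 2), 0 between the LN groups (0 to 2, 2 without LN CD44low replicate 2), 0 between the BM groups (0 to 1, 1 without BM CD44high replicate 2) and 3 for lung against LN and BM (3 to 5). The labels do not say whether equal replicate numbers in different groups come from the same mouse, and the main fit did not pair them. Correlations of deviations between groups ranged from -0.19 to 0.17, and 3 of 21 were over 0.1. With 2 libraries a group, these values cannot decide whether the samples were paired. A block on the replicate number changed no count by over 1.5 times other than that in LN CD44low cells. Median-ratio scaling moved the median of all genes from between -0.34 and -0.04 to between 0.02 and 0.11 for the LN and BM groups minus MFP. It also raised the share of higher genes among those called from 43.3% to 52.3% in LN CD44low, from 55.7% to 65.4% in BM CD44low, from 39.9% to 58.6% in LN CD44high, from 47.4% to 64.9% in BM CD44high, from 56.2% to 69.2% between the LN groups and from 50% to 60% between the BM groups, and lowered it from 56.3% to 45.6% for lung against LN and BM. With 2 libraries a group, TPM without read counts and 1 single-cell library per group, differences of about the size of the SE were not detectable.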
